A study of Mus musculus with 25 samples.

Results

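Sorted spermatids were collected from the adult mouse testis by fluorescence-activated sorting on Hoechst fluorescence, as haploid germ cells by their DNA content. They were profiled by Drop-seq, a droplet method that tags the 3′ end of each captured transcript with a unique molecular identifier (UMI). The purity of the sort was not tested. The population was taken as every barcode of the sorted-spermatid table with at least 200 UMIs, which kept 291 of its 299 barcodes. The series held 48642 barcodes in 25 tables, of which 44404 reached 200 UMIs. The spermatids came from 1 C57BL/6 wild-type male aged 2 months and 21 days, whose testis was dissociated mechanically, and were sequenced on a MiSeq as 1 library.

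Primary spermatocytes (198 of 199 barcodes, tetraploid gate) and secondary spermatocytes (154 of 398 barcodes, diploid gate) were sorted by the same dye. Both came from C57BL/6 wild-type testis of the same age, dissociated and sequenced in the same way. The minimum of 200 UMIs left out 14.9% of the UMIs of the secondary spermatocyte table and 0.619% of those of the spermatid table. Spermatogonia (292 barcodes) were GFP-positive cells of Pouf51-EGFP pups (the spelling of the labels, Pou5f1-EGFP in the study's methods) at day 7 with a C57BL/6 background in the labels (a B6;CBA line in the methods), pooled from 5 littermates, dissociated enzymatically and sequenced on a HiSeq. Whole testes of C57BL/6 wild-type mice gave 11 libraries from animals between 3 months 1 day and 9 months 14 days of age, of which replicates 1 and 2 were dissociated enzymatically and replicates 1 and 3 were sequenced on a MiSeq. Whole testes of Mlh3-/- mice (B6;129 in the labels, 6 libraries, aged between 2 months 21 days and 8 months 30 days, mechanical dissociation), which lack a MutL factor of meiotic crossing over, served with the spermatogonia as libraries with few or no spermatids.

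A spermatid leaves meiosis as a round haploid cell and is remodelled without further division. The acrosome, a secretory cap carrying the proteins that meet the egg, is laid down early, and the tail with its axoneme, outer dense fibres and fibrous sheath is assembled alongside it. Late in this sequence histones are replaced first by transition proteins and then by protamines, transcription stops, and the messages needed for the last steps are kept in store.

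The spermatid library held 235699 UMIs after the filter, from 10931 genes, with a median of 352 UMIs (range 203 to 8271) and 288 genes per barcode. The 29 deepest barcodes contributed 43.7% of the UMIs. The sorted primary spermatocytes gave 106941 UMIs (median 308), the secondary spermatocytes 223002 (median 353.5), and the wild-type testes between 357147 and 3829103. Mitochondrially encoded transcripts made up 0.628% of spermatid UMIs, 2.47% in primary and 0.291% in secondary spermatocytes, and 0.403% to 1.72% in whole testes. Between 0 and 1 barcode was shared with any other library, 5 libraries sharing 1 barcode each. Doublets were not called. All levels are given as UMIs per 1000000 UMIs of a library (CPM), which count molecules and are not divided by transcript length. Sums over a library cannot tell fewer cells of a type from less RNA per cell. Because each sorted population was 1 library, no p-value is given. Intervals are exact 95% intervals and cover counting error only. Against the 11 wild-type libraries the smallest p that an exact permutation test could reach for 1 library is 0.0833, and their spread is that of whole testes.

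The protamines and transition proteins, the small basic proteins that compact the sperm nucleus, included the 4 genes with most UMIs in the library. Their genes are shown with the 120 bases before the RefSeq start (GRCm38.p6), together with that of Hmgb4, a high-mobility-group gene that accompanied them. Prm1, Prm2, Prm3 and Tnp2 lie in a single cluster on chromosome 16, between 10787935 and 10796823 (8.89 kb, RefSeq genes), and Tnp1 lies on chromosome 1. In the sequences, written 5′ to 3′ along the gene, capitals mark TGANNTCA, the palindromic core shared by cAMP-response-element-like sites, and TATAA on either strand (TTATA on the opposite strand).
Prm1, chr16:10796824-10796943, minus strand: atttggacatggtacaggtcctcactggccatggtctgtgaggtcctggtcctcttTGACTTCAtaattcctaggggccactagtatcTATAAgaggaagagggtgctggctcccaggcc
Prm2, chr16:10792106-10792225, minus strand: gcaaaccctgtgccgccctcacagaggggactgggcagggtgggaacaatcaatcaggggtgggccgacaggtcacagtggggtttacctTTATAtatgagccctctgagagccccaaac
Prm3, chr16:10790915-10791034, minus strand: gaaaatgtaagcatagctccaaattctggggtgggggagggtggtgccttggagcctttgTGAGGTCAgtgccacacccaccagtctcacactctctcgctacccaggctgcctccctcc
Tnp1, chr1:73015900-73016019, minus strand: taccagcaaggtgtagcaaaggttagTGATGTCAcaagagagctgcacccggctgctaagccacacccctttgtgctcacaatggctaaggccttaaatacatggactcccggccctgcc
Tnp2, chr16:10788656-10788775, minus strand: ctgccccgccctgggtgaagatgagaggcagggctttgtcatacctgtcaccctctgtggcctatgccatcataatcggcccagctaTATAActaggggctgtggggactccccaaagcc
Hmgb4, chr4:128260896-128261015, minus strand: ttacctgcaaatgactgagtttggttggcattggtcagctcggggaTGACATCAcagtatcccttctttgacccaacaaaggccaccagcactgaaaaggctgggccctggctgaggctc

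TGANNTCA was present before Prm1 (first base at -64), Prm3 (-60), Tnp1 (-94) and Hmgb4 (-74), and TATAA before Prm1 (-32), Prm2 (-30) and Tnp2 (-33). Over the 32851 promoters of the RefSeq table, windows of the same 120 bases held TGANNTCA in 7.14% and TATAA on either strand in 11.8%. In all, 13 genes were searched in 17 RefSeq windows, since Gapdhs, Ldhc and Meig1 have several starts, the 6 shown and Hils1, Gapdhs, Smcp, Tex36, Acrv1, Ldhc and Meig1. Of these, 6 held TGANNTCA (Gapdhs in both windows and Meig1 in 1 of 3, beside the 4 above) and 4 held TATAA (Ldhc in 1 of 2 windows, beside the 3 above), whereas the shares over all promoters are per window. Hmgb4 was shown after its window had been read. A match only describes these letters.

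Prm1 reached 33602 CPM in sorted spermatids, 18888 in secondary spermatocytes, 1534 in primary spermatocytes and 0 in spermatogonia. Across the 11 wild-type testes it ranged from 3553 to 12588 CPM with a median of 7885. The spermatid value lay above every other library used here, with an interval of 32866 to 34351 CPM. In the Mlh3-/- testes, Prm1 was between 0 and 0.921 CPM.

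Tnp2, a transition protein gene, was at 13284 CPM in spermatids, 6834 in secondary and 533 in primary spermatocytes. The wild-type testes gave 3141, 4469 and 7488 CPM as lowest, median and highest values. Prm2, whose precursor is processed after loading onto DNA, was at 27446 CPM in spermatids against 13915 and 1721 CPM in secondary and primary spermatocytes, and at 8484 to 15984 CPM in whole testes. Neither gene's spermatid level overlapped with any whole testis. Tnp1 was at 18884 CPM in spermatids, 10395 in secondary and 739 in primary spermatocytes, with 2341 to 9784 CPM in whole testes. Prm3, a cytoplasmic member of the cluster, was at 2168 CPM in spermatids, 1646 in secondary and 318 in primary spermatocytes. Prm3 alone of the 5 fell inside the whole-testis range, since the enzymatically dissociated wild-type replicate 1 had 3055 CPM while the other 10 libraries were below the spermatids.

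**Figure D1:**
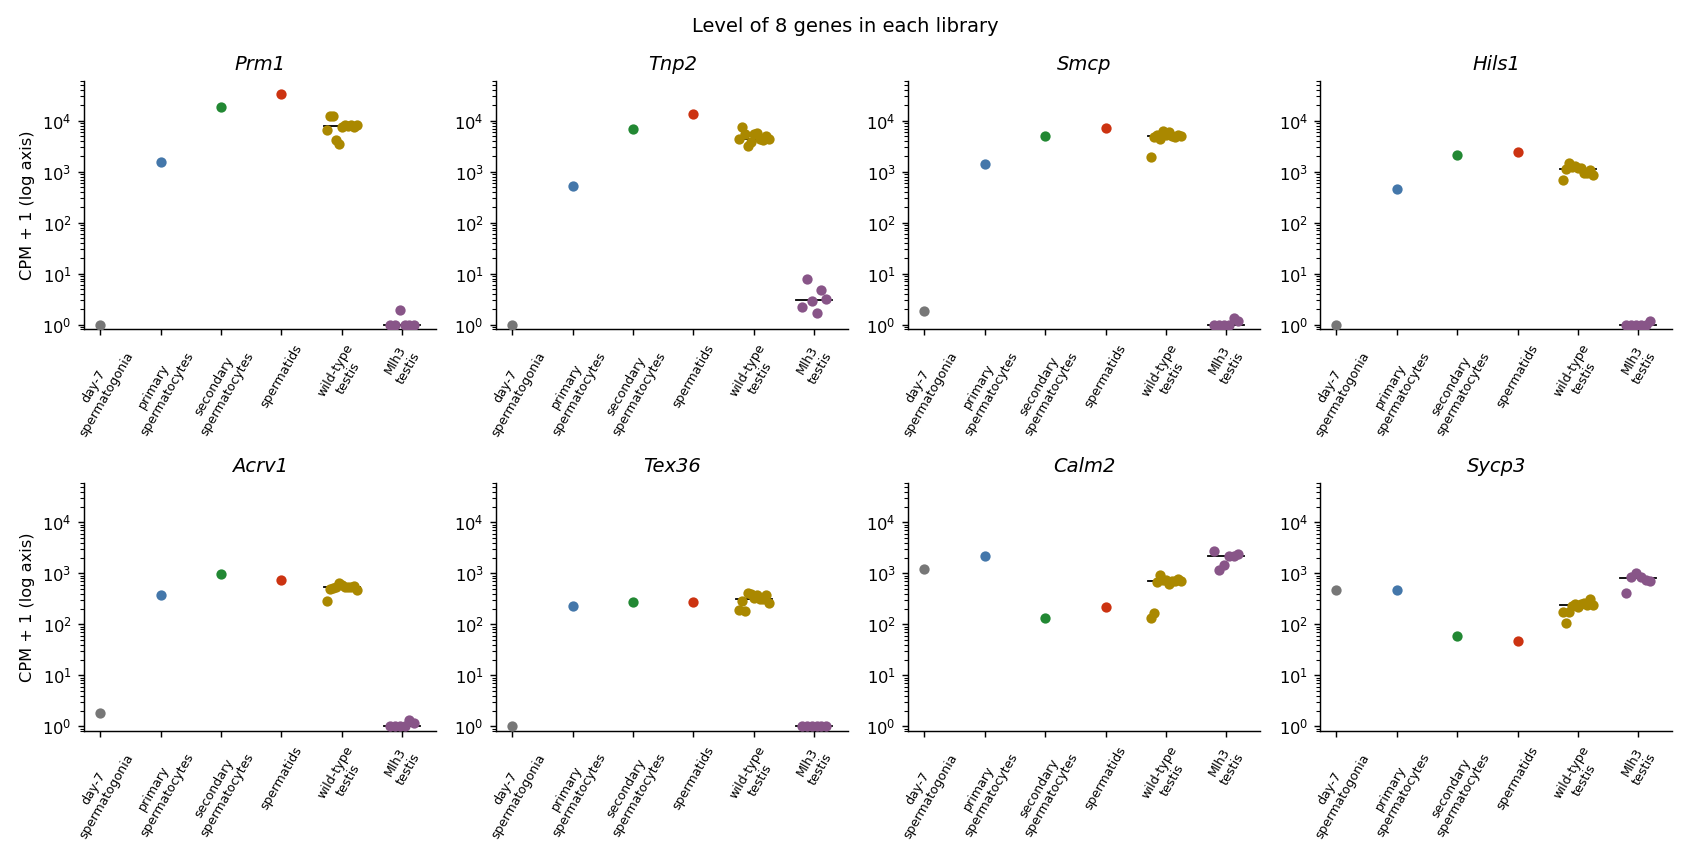
CPM + 1 on a log axis of 8 genes in each library: sorted spermatogonia, primary and secondary spermatocytes and spermatids (1 point each), 11 wild-type and 6 Mlh3-/- testes, with a line at the median of each testis group. The points of sorted spermatids lie above all 11 wild-type testes for Prm1 (33602 against at most 12588 CPM) and below all of them for Sycp3 (46.7 against at least 105 CPM), while Tex36 (276 CPM) lies inside their range.

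The ratios to the 2 sorted spermatocyte libraries differed greatly in size. Against primary spermatocytes, Prm1 was 21.9-fold higher (18.8 to 25.7), Prm2 16.0-fold (13.8 to 18.6), Prm3 6.82-fold (4.82 to 9.96), Tnp1 25.6-fold (20.5 to 32.4) and Tnp2 24.9-fold (19.2 to 33.0). Against secondary spermatocytes the same genes were 1.78-fold (1.71 to 1.85), 1.97-fold (1.89 to 2.06), 1.32-fold (1.15 to 1.51), 1.82-fold (1.73 to 1.91) and 1.94-fold (1.83 to 2.07) higher. All 5 thus exceeded the 2-fold threshold used for a call against primary spermatocytes and none did against secondary spermatocytes. The latter depended on the scaling, as the log2 ratios of Prm2 and Tnp2 to secondary spermatocytes became 1.11 and 1.09 with trimmed-mean (TMM) scaling and 1.21 and 1.42 with equal weight for every barcode, an alternative chosen after seeing the data, and that of Tnp1 became 1.09 with the latter. Together the 5 genes held 9.54% of spermatid UMIs (9.42 to 9.66), 5.17% in secondary and 0.484% in primary spermatocytes, and 1.91% to 4.67% in whole testes (median 2.89%). In the Mlh3-/- testes they held at most 0.00111%.

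Of the 3 genes used as markers of the population, Prm1 and Tnp2 were called against primary spermatocytes and whole testes but, with the scaling by library totals, not against secondary spermatocytes, and Tex36, a testis-expressed gene of unknown function, was called against none of them. Tex36 was at 276 CPM in spermatids (65 UMIs), 278 in secondary and 224 in primary spermatocytes (24 UMIs), and at 182 to 416 CPM in whole testes. Its ratio to primary spermatocytes was 1.23 (0.759 to 2.05), an interval that includes no change. It was at 0 in the spermatogonia and in all 6 Mlh3-/- testes.

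Nearly every spermatid barcode carried a protamine transcript, which does not show that the cell in it expressed the gene. Of the 163 barcodes with under 400 UMIs, 5 held under 2% of UMIs from the 5 protamine and transition protein genes. Of the 61 with 1000 UMIs or more, 20 did. With each barcode thinned to 200 UMIs, 91.1% of the 291 barcodes (87.2 to 94.1) had a UMI of Prm1 and 71.8% (66.3 to 76.9) one of Tnp2, against 57.1% and 33.8% of the 154 secondary and 27.8% and 9.60% of the 198 primary spermatocyte barcodes. Without thinning, the spermatid shares were 99.3% and 87.6%. Of 292 spermatogonial barcodes, taken from other animals in another sort, none had a UMI of either gene (exact interval 0 to 1.26%), which limits barcodes with a UMI and not cells that express the gene, and gives no background share for the spermatid droplets. Tex36 was seen in 6.87% of thinned spermatid barcodes (4.25 to 10.4), 7.79% of secondary and 2.02% of primary spermatocyte barcodes (0.553 to 5.09). Calm2, a calmodulin gene abundant in primary spermatocytes, was seen in 1.72% of spermatid, 1.95% of secondary and 36.9% of primary spermatocyte barcodes. Sycp3, a lateral element protein of the synaptonemal complex, was seen in 0.687% of spermatid barcodes (2 barcodes, 0.0833 to 2.46). Its shares were 0% of secondary (0 to 2.37) and 11.1% of primary spermatocyte barcodes. Low shares of these genes thus did not set spermatids apart from secondary spermatocytes. A second random thinning gave 4.81% and 3.03% for Tex36 in spermatids and primary spermatocytes. In spermatids, secondary and primary spermatocytes it gave 2.41%, 1.30% and 42.9% for Calm2. For Sycp3 it gave 1.37% (4 barcodes), 0% and 10.6% in the same order. The median depths of the 3 sorts before thinning lay between 308 and 353.5 UMIs.

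Beside the protamine genes, the genes with most UMIs in spermatids were Ldhc, the testis lactate dehydrogenase (7577 CPM), Smcp, a cysteine-rich protein of sperm mitochondria (7039 CPM), the mitochondrial ribosomal RNA mt-Rnr2 (5257 CPM), Meig1, needed for the manchette and tail (4896 CPM), Hmgb4 (4794 CPM) and Fabp9, a fatty-acid-binding protein of the sperm perinuclear theca (4472 CPM). The 10 genes with most UMIs held 12.7% of the library and the 100 with most held 27.6%. Hmgb4 was 12.8-fold above primary spermatocytes (9.35 to 18.0) and 1.80-fold above secondary spermatocytes (1.63 to 1.99), and at 4794 CPM it exceeded the highest whole testis (2120 CPM). Ldhc, Meig1 and Fabp9 behaved differently. Ldhc was at 10277, 8179 and 7577 CPM in primary spermatocytes, secondary spermatocytes and spermatids, and Meig1 at 4713, 4439 and 4896 CPM. Fabp9 was at 3965, 3753 and 4472 CPM, so these 3 abundant messages differed by less than 2-fold between these 3 sorted populations.

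Across all genes, 3209 had at least 20 UMIs over spermatids and primary spermatocytes, and 854 of them (26.6%) were at least 2-fold higher and 974 (30.4%) at least 2-fold lower in spermatids. The median log2 ratio was -0.27. With TMM scaling the median moved by 0.31 and the counts became 988 higher and 723 lower. All 5 protamine and transition protein genes were among the higher ones, as were the 3 measured testis histone genes with enough UMIs. H1fnt, a linker histone variant of spermatids, had 1493 CPM in spermatids and 150 in primary spermatocytes (9.98-fold, 6.06 to 17.7). Hils1, another spermatid linker histone, had 2465 and 449 CPM (5.49-fold, 4.09 to 7.53). H2afb1, an X-linked short H2A variant, had 1120 and 65.5 CPM (17.1-fold, 8.19 to 43.0).

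Beside 26.6% higher over all genes, 10 of 13 outer dense fibre and fibrous sheath genes were higher in spermatids than in primary spermatocytes and none lower. They included Gapdhs, the glycolytic enzyme bound to the fibrous sheath (2257 against 383 CPM, 5.89-fold, 4.28 to 8.30), Akap4, the main sheath scaffold (1031 against 224 CPM, 4.59-fold, 3.02 to 7.31) and Odf2 (3547 against 1552 CPM, 2.28-fold, 1.93 to 2.72). Of 16 axoneme genes, 1 was higher (Tekt5, a tektin of the microtubule doublets) and 6 (37.5%) were lower, near the 30.4% lower among all genes tested. With TMM scaling 4 were lower, and with equal weight for every barcode Tekt2, Tekt3 and Tekt4 were called higher in place of Tekt5 and 5 genes lower. Rsph1, a radial spoke head protein, was at 747 CPM in spermatids and 2833 in primary spermatocytes (0.264 of the primary level, 0.218 to 0.318), and Dnah8, a dynein heavy chain, at 204 and 907 CPM.

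Of 12 genes of sperm mitochondria and late cytoplasm, 9 were higher and none lower than in primary spermatocytes, beside 26.6% higher and 30.4% lower over all genes. Spem1, required for removal of spermatid cytoplasm, was 17.7-fold higher (6.77 to 65.8), Txndc2, a sperm thioredoxin, 10.4-fold (5.55 to 22.0), Cabs1, a calcium-binding protein of elongate spermatids, 8.20-fold (4.96 to 14.5) and Smcp 5.09-fold (4.30 to 6.06). Oaz3, the testis antizyme of polyamine control, was at 2427 CPM in spermatids and 486 in primary spermatocytes. Of 19 acrosome and zona-binding genes, 7 (36.8%) were higher and 3 (15.8%) lower, with a median log2 ratio of 0.75 beside -0.27 for all genes tested. With TMM scaling 11 were higher and none lower, and with equal weight for every barcode 12 and 1. The summed share of the list lay the other way, at 0.863% of spermatid and 0.971% of primary spermatocyte UMIs (0.889 of the primary level). Izumo1, the sperm protein that binds the egg receptor, was 3.78-fold higher (1.62 to 10.8), whereas Acrbp, which holds proacrosin, was at 0.497 (0.383 to 0.647) and Spink2, an acrosomal protease inhibitor, at 0.482 (0.409 to 0.568) of the primary spermatocyte level.

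Among 13 energy genes 6 were higher and 4 lower, beside 26.6% higher and 30.4% lower over all genes, so that the lower share lay near that of all genes. The higher ones were glycolytic (Pgk2, Gapdhs, Aldoart1, Aldoart2, Hk1 and Tpi1). The lower ones were Eno4, an enolase of the sperm tail, the testis cytochrome c gene Cyct, and the cytochrome oxidase subunits Cox6b2 and Cox8c. Eno4 was not called with TMM scaling or with equal weight. Of 10 kinases and phosphatases, the testis-specific serine kinases Tssk1, Tssk2, Tssk3 and Tssk6 were higher and the phosphatase subunits Ppp3cc and Ppp1cc lower, Ppp1cc not with TMM scaling. Tssk6, needed for chromatin condensation, showed the largest ratio of these (15.6-fold, 7.43 to 39.1). Of 8 nuclear remodelling factors, 4 were higher (Chd5, Tssk6, Sun5 and Hook1) and 1, the bromodomain factor Brdt, lower, which was not called with TMM scaling.

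Genes of post-meiotic transcription gave 5 higher and 1 lower of 9, beside 26.6% higher and 30.4% lower over all genes. Kif17, which moves a CREM coactivator, had 29 UMIs in spermatids and 2 in primary spermatocytes (6.58-fold, 1.66 to 56.9). Fhl5, that coactivator, was 3.63-fold higher (2.19 to 6.41). Crem itself, the activator of post-meiotic promoters, was at 403 CPM and had a ratio of 1.05 (0.722 to 1.56). Tbpl1, a TBP-like basal factor, was at 195 CPM in spermatids and 673 in primary spermatocytes (3.45-fold lower, 2.35 to 5.11). Of 12 post-meiotic genes of unknown function, a list that the study drew from these same libraries and that is no independent evidence, 6 had enough UMIs and 3 (Tex29, Tepp and Spata25) were higher, with equal weight 5.

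Among genes of the preceding stages, read against 30.4% lower over all genes, most of the piRNA and division genes were lower. Of 7 piRNA and chromatoid body genes tested, 6 were lower and none higher (4 lower with TMM scaling): Piwil1, the pachytene piRNA-binding protein, was at 33.9 CPM in spermatids (8 UMIs) and 496 in primary spermatocytes (14.6-fold lower, 6.90 to 35.6). Of 8 genes of the meiotic divisions 6 were lower and none higher, among them Psma8, a proteasome subunit of spermatocytes (6.61-fold, 3.69 to 12.5). Of 7 synaptonemal complex and cohesin genes tested, 3 were lower, 1 higher and the other 3 within 2-fold, while with equal weight for every barcode Syce1 and Smc1b were lower as well. Sycp1, Sycp2 and Sycp3 were 7.03-fold (3.94 to 13.2), 8.72-fold (5.41 to 14.6) and 10.02-fold (5.15 to 21.3) lower. Syce2, a central element gene, was the higher one, at 318 CPM in spermatids and 122 in primary spermatocytes. Of 10 genes of calcium and ion transport, 6 were lower and none higher, including Calm2, at 221 against 2197 CPM (9.96-fold lower, 7.35 to 13.7). With TMM scaling 4 were lower and Catsper4 higher, and with equal weight 5 were lower and Catsper3 and Catsper4 higher. Of 9 regulators of stored mRNA, 3 were lower (Pabpc1, Pabpc6 and Ddx25) and none higher, a share of 33.3% that is near the one over all genes, and 1 was lower with TMM scaling. Counts of near-identical paralogues such as Pabpc1, Pabpc2 and Pabpc6 can share reads.

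The 10 highest ratios to primary spermatocytes rested on 1 to 3 UMIs in the latter. Genes with 0 UMIs there were set to a floor of 3 UMIs and could rank behind them, as Gm6760 did (65 against 0 UMIs, 9.83-fold). 1700034E13Rik had 134 UMIs in spermatids against 1 (60.8-fold, 10.7 to 2419), Ttc24 109 against 1, Cdrt4 216 against 2 (49.0-fold, 13.4 to 407) and 1700042G07Rik 263 against 3 (39.8-fold, 13.5 to 194). Col20a1, a collagen chain, had 69 against 1 and Agpat2, an acyltransferase of phospholipid synthesis, 88 against 1. Among genes with a UMI in both libraries, the lowest ratios were those of Stk31 (1 against 23 UMIs, 50.7-fold lower, 8.23 to 2088) and Glipr1l2 (2 against 40 UMIs, 44.1-fold lower, 11.4 to 377). Slc2a3, a glucose transporter, had more UMIs behind it, 12 in spermatids and 96 in primary spermatocytes, and was 17.6-fold lower (9.64 to 35.3). Cks2, a cell-cycle kinase subunit, was 16.9-fold lower (7.20 to 48.4).

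**Figure D2:**
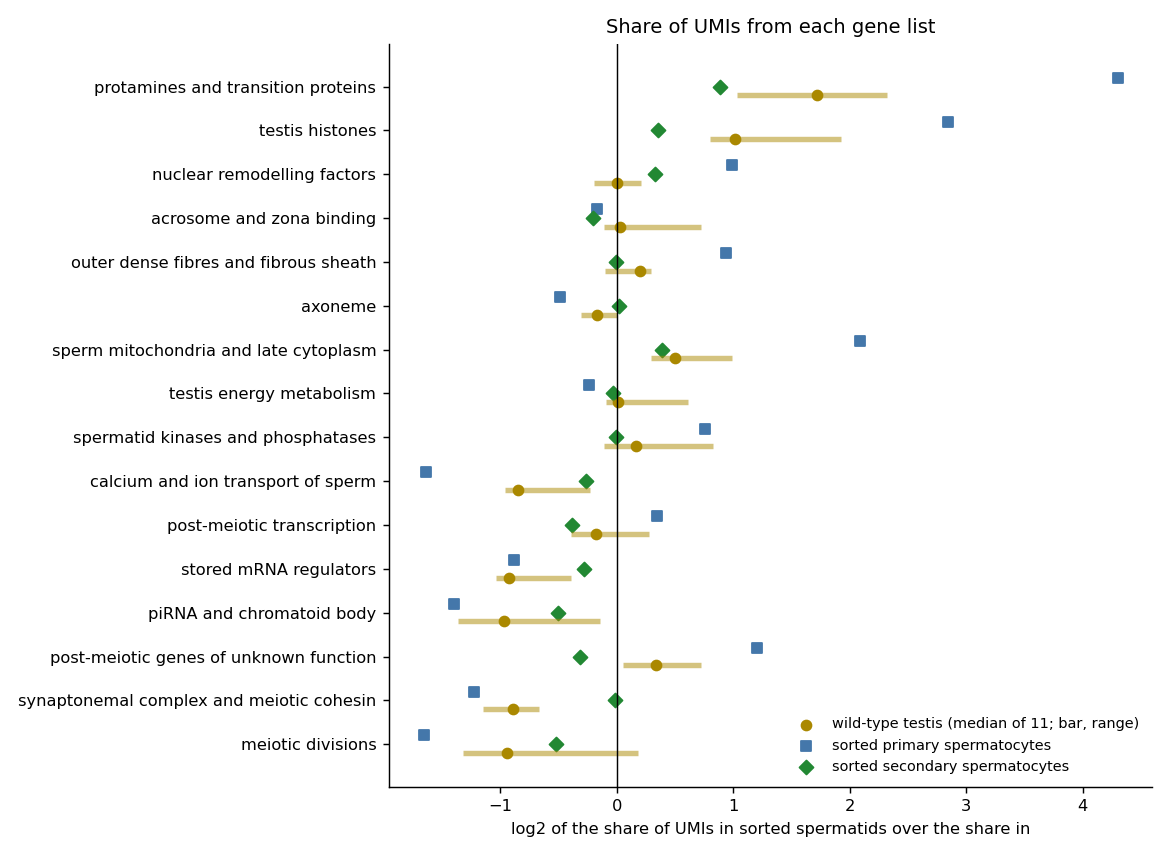
Log2 ratio of the share of UMIs from each gene list in sorted spermatids over that in primary spermatocytes (squares), in secondary spermatocytes (diamonds) and in 11 wild-type testes (circles, median; bars, range), for lists with at least 100 spermatid UMIs. The protamine and transition protein list stands farthest to the right against primary spermatocytes (19.7-fold) and less so against secondary spermatocytes (1.85-fold) and whole testes (3.30-fold).

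Fewer genes differed from the library labelled secondary spermatocytes. Of 3647 genes tested, 84 (2.30%) were at least 2-fold higher and 247 (6.77%) at least 2-fold lower in spermatids, with a median log2 ratio of -0.14. With TMM scaling, which moved the median by 0.13, the counts were 126 and 180. With equal weight for every barcode they were 420 higher and 507 lower, among them 53 of the 84 and 163 of the 247. With the scaling by library totals, no gene of the protamine, histone, acrosome, tail fibre, energy or kinase lists passed the 2-fold threshold in either direction. Prm2, Tnp2 and Tssk6 passed it upward with TMM scaling, and with equal weight Prm2, Tnp1, Tnp2, H2afb1 and Tssk6 did so upward and Ppp3r2 downward. No acrosome, tail fibre or energy gene passed under any of the 3. Dnah1, a dynein heavy chain with 22 against 9 UMIs, was the only axoneme gene called higher, and was not called with equal weight. Sycp2 was called higher with 22 against 10 UMIs and a ratio of 2.08 (0.946 to 4.92), an interval that includes no change, and it too was not called with equal weight. Of the same list, Rec8 was lower with library totals and with equal weight, and Sycp3 and Syce2 were higher with equal weight only. Ccna1, the cyclin of male meiosis, was 2.11-fold lower (1.17 to 3.95), Aurka 2.29-fold (1.12 to 4.98) and Plk1 2.27-fold (0.869 to 6.57). Ccna1 was not called with TMM scaling, and neither Ccna1 nor Plk1 with equal weight, which called Ccnb2, Nek2 and Psma8 lower. Catsper4 was called lower with library totals only. Tbpl1 was 2.41-fold lower than in secondary spermatocytes (1.69 to 3.49) and Gk2, a testis glycerol kinase, 2.01-fold (1.51 to 2.71), of which Gk2 was called under neither alternative. Of 9 post-meiotic genes of unknown function, none was called with library totals and 4 were higher with equal weight.

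Leydig cell genes, which belong to the steroid-producing cells outside the tubules, were prominent in what was lower. Cyp17a1, a steroidogenic enzyme, had 2 UMIs in spermatids and 65 in secondary spermatocytes (34.4-fold lower, 9.13 to 289.7), Ptgds 7 and 198 (29.9-fold, 14.2 to 75.3) and Insl3, the Leydig peptide hormone, 8 and 93 (12.3-fold, 5.98 to 29.3). The Leydig list as a whole held 0.00806% of spermatid UMIs and 0.178% in secondary spermatocytes. In a single deep barcode of the latter it held up to 8.21% of the UMIs outside the 5 protamine and transition protein genes. Agt, Gstm1, Dcn, Fabp3 and Lcn2 were also among the 10 lowest. The part of these cells in the gene counts was not tested. Among the 10 highest, Cstl1, a cystatin-like gene, had 123 UMIs against 37 (3.15-fold, 2.16 to 4.67) and Fscn3, the testis fascin that bundles actin, 55 against 17 (3.06-fold, 1.75 to 5.63). Ttc21b had 24 against 3 UMIs (7.57-fold, 2.30 to 39.3) and Ccp110 17 against 4 (4.02-fold, 1.31 to 16.4). Ccp110 turned to a log2 ratio of -0.32 when every barcode was given equal weight.

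Against the whole testes, a gene was called when its spermatid level lay outside the range of all 11 libraries and at least 2-fold from their median. Of 2783 genes tested, 212 (7.62%) were above and 435 (15.6%) below, with a median log2 ratio of -0.21. TMM scaling, which moved the median by 0.15, gave 275 above and 310 below. All but Prm3 of the 5 protamine and transition protein genes were above, as were Hils1 and H2afb1 of 3 histone genes. With equal weight for every barcode, Prm2, Hils1 and H2afb1 were no longer called and Prm1, Tnp1 and Tnp2 were. Prm1 was 4.26-fold, Tnp1 3.80-fold, Tnp2 2.97-fold and Prm2 2.58-fold over the whole-testis median. Of 12 genes of sperm mitochondria and late cytoplasm, 3 were above (Spata19, a mitochondrial sheath protein, Abhd5, a lipase coactivator, and Txndc8) and Gk2 below, where Spata19 and Gk2 lost their calls with equal weight. Abhd5 was at 496 CPM in spermatids and between 67.2 and 294 CPM in whole testes.

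Beside the 7.62% above and 15.6% below over all genes, no outer dense fibre or fibrous sheath gene of 13 was outside the whole-testis range at 2-fold, and 1 of 19 acrosome genes was, Spaca4 (526 CPM against 148 to 302), joined with equal weight by Acrv1 and Spaca5. Of 8 synaptonemal complex and cohesin genes, 6 were below every whole testis (Sycp1, Sycp2, Sycp3, Syce1, Smc1b and Stag3), as were Ccna1, Aurka and Plk1 of 8 division genes, Piwil1 and Ddx4 of 5 piRNA genes, and Pabpc1 and Pabpc6 of 9 mRNA regulators, the last 22.2%. With TMM scaling 4 of 7 synaptonemal complex and cohesin genes were below, without Syce1 and Stag3. With equal weight for every barcode Syce1, Ccna1 and Spag6 were not called, while Cdc20 and Nek2 were. Sycp3 was at 46.7 CPM in spermatids and 105, 234 and 306 CPM as lowest, median and highest testis. Rsph1 and Spag6, of the axoneme, were below as well. The list of stored mRNA regulators held 0.758% of spermatid UMIs, under the lowest whole testis (0.994%).

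Among the 10 genes farthest above the whole testes were Rpl36, Rps28 and Rps27 of the ribosome. Ribosomal protein genes made up 2.90% of spermatid UMIs, 4.58% and 3.01% in the sorted spermatocytes, 2.18% and 3.37% in the MiSeq-sequenced wild-type replicates 1 and 3, and 1.22% to 1.74% in the HiSeq-sequenced wild-type libraries. Against wild-type replicate 3 alone, the mechanically dissociated MiSeq library, 170 genes were above and 385 below at 2-fold, of which 108 and 254 were also called against all 11. The part of the sequencer in these calls was not tested. Aldh1l1, a folate enzyme, was farthest above at 25.3-fold over the median, but at 187 CPM it lay close to the highest testis at 172 CPM.

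Markers of spermatogonia and of somatic cells had few UMIs in the spermatid library. Markers of spermatogonia had 5 UMIs, Sertoli cells 36, Leydig cells 19, macrophages 4 and interstitial or peritubular cells 5. Red blood cell genes had 0 UMIs (exact interval up to 0.00157% of the library). The Sertoli list held 0.0153% of spermatid UMIs, under all 11 whole testes (0.0277% to 0.0804%). The other somatic lists lay inside the whole-testis range, Leydig genes at 0.00806% and macrophage genes at 0.00170%, each with 2 of the 11 testes below, and interstitial or peritubular genes at 0.00212% with 5 below. Spermatogonial markers, at 0.00212% from 5 UMIs, had an interval (0.000689% to 0.00495%) that includes the lowest whole testis (0.00229%). How many spermatocytes the sort held was not tested.

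X-linked UMIs held a larger share in spermatids than in primary spermatocytes. Meiotic sex chromosome inactivation silences the X and Y in pachytene spermatocytes, and part of the X is expressed again after meiosis. X-linked UMIs were 1.73% of autosomal UMIs in spermatids (1.67 to 1.78), 1.62% in secondary spermatocytes, 0.433% in primary spermatocytes and 2.82% in spermatogonia. Whole testes lay between 1.11% and 1.68% with a median of 1.15%, all below the spermatids. Of 44 X-linked genes tested against primary spermatocytes, 41 (93.2%) were higher and none lower, beside 25.3% higher among 3098 autosomal genes. Against secondary spermatocytes 3 of 70 X-linked genes were higher and 3 lower (4.29% each), beside 2.12% higher and 6.85% lower among autosomal genes. Against whole testes 15 of 42 (35.7%) were above and 1 below, beside 6.96% above among autosomal genes.

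The X-linked genes with most spermatid UMIs were H2afb1 (264 UMIs, 7 in primary spermatocytes), Akap4 (243 and 24), Tsga8, a haploid-specific nuclear protein gene (230 and 34), Cypt1 (207 and 19) and Cypt3 (150 and 11), both encoding cysteine-rich perinuclear theca proteins. H2afb1, Cypt1 and Cypt3 were above all 11 whole testes, whereas Akap4 at 1031 CPM lay below the highest of them at 1142 CPM. Y-linked genes were scarce, with 49 UMIs in spermatids or 0.0216% of autosomal UMIs (0.0160 to 0.0286), within the whole-testis range of 0.0143% to 0.0620%.

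The protamine and transition protein share varied widely between spermatid barcodes, and its distribution changed with depth. Among 163 barcodes of 200 to under 400 UMIs the median share was 5.84% (quartiles 4.55% and 7.50%), and 141 of them lay between 2% and 10%. Among 61 barcodes of 1000 UMIs or more, 20 lay under 2% (0.143% to 1.83%), 7 between 2% and 10% (3.47% to 5.81%) and 34 at 10% or more (10.5% to 25.2%). These limits were set after the shares were seen, and 1 deep barcode lay within 0.5 percentage points of the lower and 1 within 1 point of the upper limit.

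**Figure D3:**
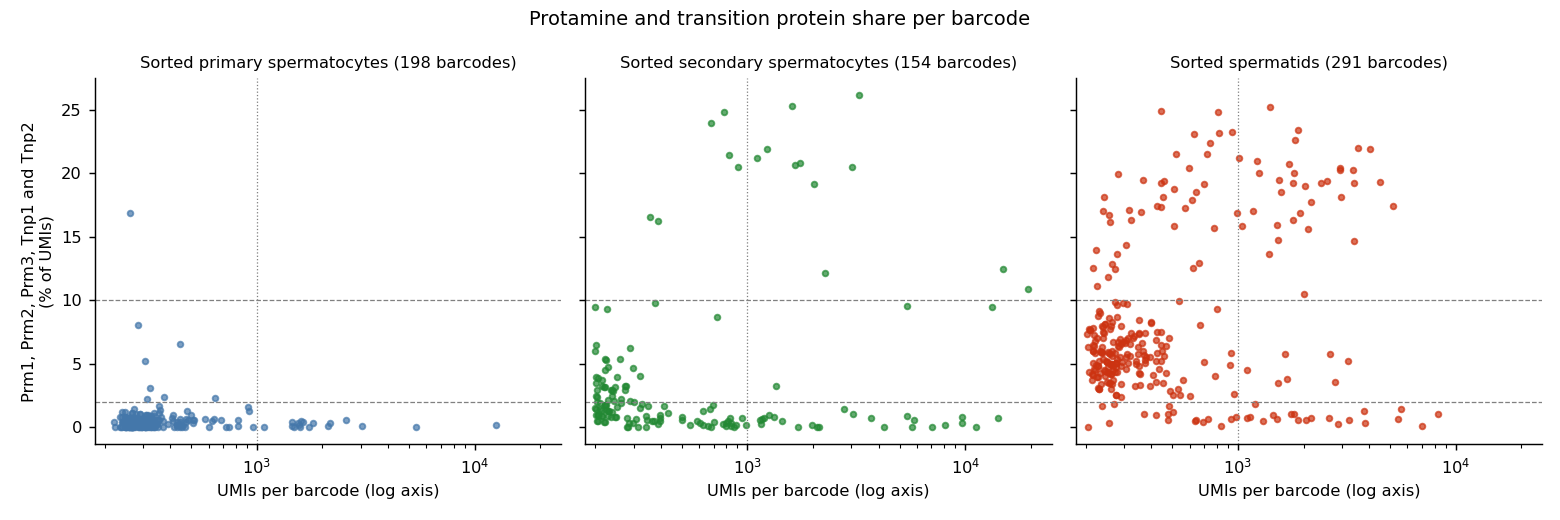
Percent of UMIs from the 5 protamine and transition protein genes against the UMIs per barcode (log scale), 1 point per barcode, for sorted primary spermatocytes, secondary spermatocytes and spermatids, with dashed lines at 2% and 10%. Spermatid barcodes under 400 UMIs gather around 5.84%, while those of 1000 UMIs or more separate into 20 under 2% and 34 at 10% or more.

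At 1000 UMIs or more, all 17 primary spermatocyte barcodes lay under 2%, and 11 of 38 secondary spermatocyte barcodes (28.9%) reached 10%, beside 55.7% of spermatid barcodes. In whole testes 2.55% to 28.0% of deep barcodes reached 10%. Among the 1005 genes with at least 50 UMIs, the median ratio of variance to Poisson variance between barcodes was 1.11. Prm1 had a ratio of 22.8, Prm2 17.1, Tnp1 13.6 and Tnp2 9.27, all in the top 10, whereas Prm3 was at 1.45 and ranked 117. The others in the top 10 were the mitochondrial genes mt-Rnr2 (12.6), mt-Cytb (9.72) and mt-Nd1 (5.62), the endoplasmic reticulum chaperones Hsp90b1 (3.14) and Hspa5 (3.05), and Hmgb4 (2.96).

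The 3 ranges of deep spermatid barcodes differed in the genes that were not used to form them, each expressed as a percent of the UMIs outside the 5 genes. The ranges are cuts of a continuous share and not cell types, and barcodes of 1 library are no replicates. Acrosome genes had medians of 1.21% in the low range (0.472% to 1.69%), 1.49% in the middle range (0.858% to 1.78%) and 0.307% in the high range (0 to 1.00%). Genes of sperm mitochondria and late cytoplasm ran the other way, with medians of 0.786%, 1.52% and 3.17%. The high range, from 2.16% to 4.84%, did not overlap with the low range, from 0.129% to 1.72%. Testis histone genes had medians of 0.168%, 0.621% and 0.948%.

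Genes of the meiotic divisions fell along the ranges, with medians of 0.136%, 0.0643% and 0, and held 0.148%, 0.0575% and 0.0192% of the summed other UMIs. Outer dense fibre and sheath genes had medians of 1.46%, 1.89% and 2.31%, and stored mRNA regulators 1.24%, 0.760% and 0.435%. Post-meiotic transcription genes were at 0.402%, 0.639% and 0.152%. Calcium and ion transport genes fell along the ranges at 0.319%, 0.271% and 0.108%. The median number of genes per barcode was 1358.5, 1124 and 903, at median depths of 2106.5, 1674 and 1908.5 UMIs. X-linked UMIs were 1.13%, 2.14% and 2.08% of autosomal UMIs, and Y-linked genes had 17, 6 and 2 UMIs.

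The low range of spermatids overlapped with the deep barcodes under 2% of both spermatocyte libraries in the lists compared here. Synaptonemal complex and cohesin genes had medians of 0.147% in the 20 low spermatid barcodes (0 to 0.541%), 0.154% in 24 secondary spermatocyte barcodes (0 to 0.314%) and 0.332% in 17 primary spermatocyte barcodes (0.0618% to 0.884%). Genes of the meiotic divisions had medians of 0.136%, 0.0810% and 0.253% in the same order. For acrosome genes the medians were 1.21% (0.472% to 1.69%), 1.18% (0 to 3.86%) and 0.975% (0.442% to 3.16%). X-linked UMIs were 1.13% of autosomal UMIs in the low range, and 0.433% and 1.62% in the primary and secondary spermatocyte libraries as a whole. The low range held 59938 of the 235699 UMIs of the spermatid library and so enters every sum over that library. Which cells the low range holds was not tested.

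**Figure D4:**
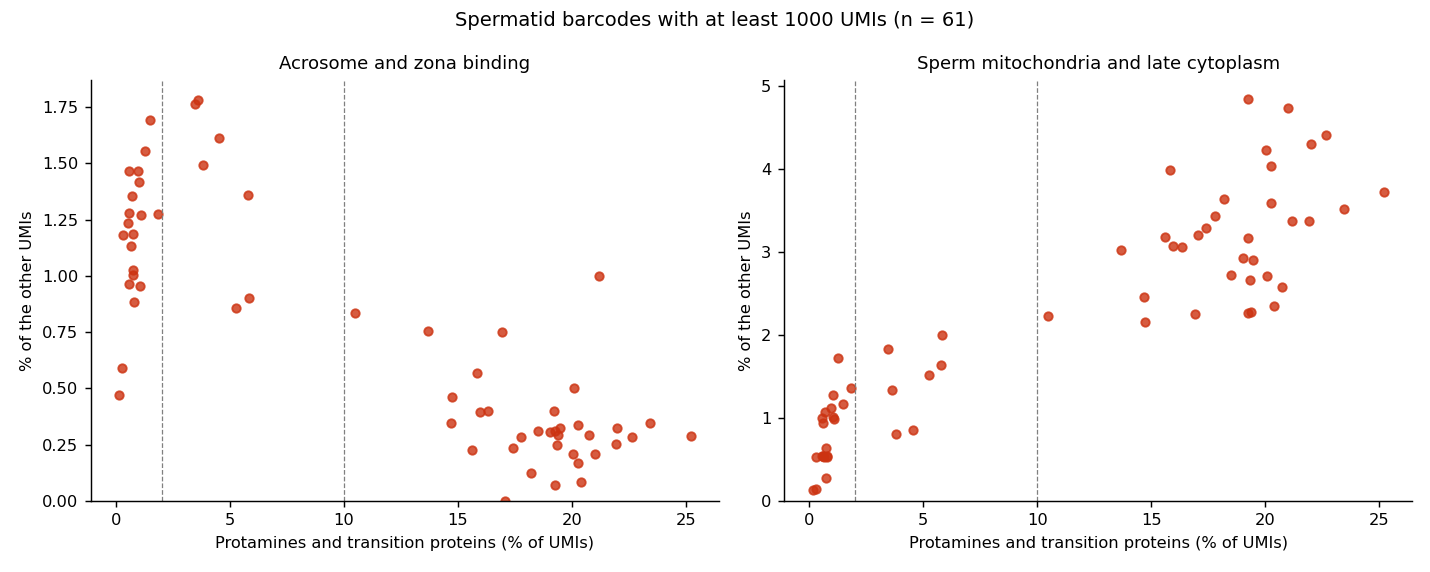
Percent of the other UMIs from acrosome genes (left) and from sperm mitochondria and late cytoplasm genes (right) against the protamine and transition protein share, 1 point for each of the 61 spermatid barcodes with at least 1000 UMIs, with dashed lines at 2% and 10%. The acrosome median is lower in the high range (0.307%) than in the low range (1.21%), and that of sperm mitochondria and late cytoplasm is higher (3.17% against 0.786%).

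Between the high and the low range, 1383 genes had at least 20 UMIs, of which 420 (30.4%) were at least 2-fold higher and 444 (32.1%) at least 2-fold lower in the high range, with a median log2 ratio of 0.05. All 3 histone genes tested were higher. H2afb1 had 151 UMIs in the high and 8 in the low range (18.0-fold, 8.90 to 42.4), H1fnt 204 and 34, and Hils1 250 and 98. Of 12 late-cytoplasm genes 9 were higher, with Cabs1 at 178 against 5 UMIs (33.9-fold, 14.3 to 106) and Smcp at 854 against 203 (4.01-fold, 3.44 to 4.70). Gk2 and Gykl1, the glycerol kinases of the list, were lower. Tssk2, Tssk3 and Tssk6 were higher and Tssk4 and Ppp3r2 lower, so that the kinase list was divided.

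Beside 30.4% higher and 32.1% lower over all genes, acrosome genes were mostly lower in the high range, 14 of 16 against 1 higher (Izumo3). Zpbp, a zona-binding protein of the acrosomal matrix, had 1 UMI in the high and 37 in the low range (38.8-fold lower, 6.55 to 1574), Spaca1 7 and 31 (4.64-fold, 2.01 to 12.5) and Acrv1, the acrosomal vesicle protein, 15 and 37 (2.59-fold, 1.39 to 5.07). Of 9 axoneme genes 6 were lower and none higher. Tekt3 had 0 UMIs in the high and 29 in the low range and was 10.1-fold lower when the 0 was set to a floor of 3 UMIs, with an exact interval that starts at 7.73-fold. Rsph1 had 8 and 95 UMIs (12.5-fold lower, 6.07 to 29.7). Crem, Tbpl1, Sox5 and Gtf2a1l, 4 of 6 post-meiotic transcription genes, were lower, Crem with 6 against 42 UMIs (7.34-fold, 3.11 to 21.1). Pabpc1, Pabpc2, Pabpc6 and Ddx25, 4 of 9 mRNA regulators (44.4%, beside 32.1% over all genes), were lower, Pabpc1 with 15 against 305 UMIs (21.3-fold, 12.7 to 38.6). Tex36 was lower with 2 against 42 UMIs (22.0-fold, 5.73 to 188).

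Among genes with a UMI in both ranges, the highest ratios were those of genes outside these lists. The floor of 3 UMIs placed genes with 0 UMIs in the low range, such as Herpud1 (48 and 0), behind them. Klk1b8, a kallikrein-family peptidase with close paralogues that may share its reads, had 112 UMIs in the high and 1 in the low range (107-fold, 18.8 to 4255). Cstl1 had 92 and 1 UMIs, Paqr5, a membrane progestin receptor, 85 and 1, 4921507P07Rik 71 and 1, and Glul, glutamine synthetase, 44 and 1. The lowest with a UMI in both ranges were 1700028P14Rik (1 and 50 UMIs, 52.4-fold lower), Calm2 of the calcium list (1 and 40, 42.0-fold), Zpbp (38.8-fold) and, at 33.6-fold, Gk2 and Pabpc6. Outside the lists, the deubiquitinase Usp8 (1 and 29), Adad1, a testis RNA-binding nuclear protein (1 and 27), and Adam2, a subunit of fertilin (1 and 25), followed. The floor of 3 UMIs placed genes with 0 UMIs in the high range, such as St13 (0 and 32), behind these.

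**Figure D5:**
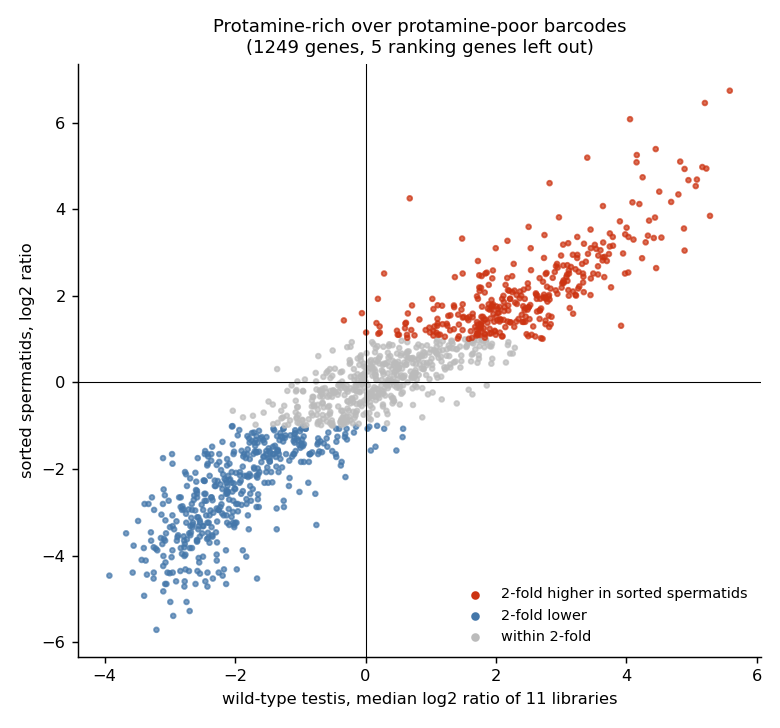
Log2 ratio of genes between barcodes with 10% or more and under 2% of UMIs from the 5 protamine and transition protein genes, in sorted spermatids (vertical) and as the median of the same ratio within 11 wild-type testes (horizontal), 1 point per gene, coloured by the call in spermatids. The points lie along a rising line (Pearson r = 0.939 across 1249 genes, which are not independent replicates).

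The same 2 ranges were formed within each of the 11 whole testes, from 723 barcodes at 10% or more and 3796 under 2% in all. These are other animals, but the same 5 genes formed the ranges. Of the 420 genes higher in the spermatids' high range, 342 could be tested in every whole testis, and 312 of these (91.2%) were higher in all 11. Of the 444 lower genes 431 could be tested, and 378 (87.7%) were lower in all 11. Among the genes within 2-fold in spermatids, 27.1% were higher and 16.8% lower in all 11. The wild-type low range also holds spermatocytes. Within whole testes, the median log2 ratio of Tex36 was -3.93 (range -4.84 to -2.26), that of Zpbp -2.70 (-4.32 to -1.38) and that of Cabs1 4.16 (3.22 to 4.76), each with the sign it had in spermatids (-4.46, -5.28 and 5.08).

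Ranking all 291 spermatid barcodes and comparing the 97 with the highest share (at least 7.88%) with the 97 with the lowest (at most 4.82%) brought in the shallow barcodes. Of 1893 genes tested, 466 (24.6%) were higher and 674 (35.6%) lower, with a median log2 ratio of -0.25. The rich barcodes were deeper, with a median of 615 UMIs against 408. Of 17 acrosome genes 15 were lower and 1 higher, of 12 late-cytoplasm genes 9 were higher and 2 lower, and of 11 axoneme genes 8 were lower and none higher. Zpbp had 4 UMIs in the rich and 69 in the poor barcodes (15.8-fold lower) and Pabpc1 37 and 403 (9.95-fold). Among genes with a UMI in both sets, St13, a chaperone cofactor, showed the lowest ratio with 1 against 42 UMIs.

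Within the protamine and transition protein transcripts, the ratio of Prm1 to Prm2 lay outside the whole-testis range and the transition protein part inside it. The ratio of Prm1 to Prm2 UMIs was 1.22 in spermatids, 1.36 in secondary and 0.891 in primary spermatocytes, and 0.374 to 0.844 in whole testes, so the spermatids were above all 11. Both sorted spermatocyte libraries were above all 11 as well, and the secondary spermatocytes also above the spermatids. Tnp1 and Tnp2 together were 33.7% of the 5 genes' UMIs in spermatids, 33.3% in secondary and 26.3% in primary spermatocytes, and 29.9% to 37.0% in whole testes. Among the 34 deep barcodes at 10% or more the transition protein part ran from 8.12% to 40.0% with a median of 34.7%.

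With every library thinned to 106941 UMIs, the spermatid profile over 9731 genes (log2 of CPM + 10) correlated with Pearson's r of 0.879 with secondary spermatocytes, 0.808 to 0.852 with the whole testes, 0.671 with primary spermatocytes, 0.147 to 0.326 with the Mlh3-/- testes and -0.0249 with spermatogonia. These are correlations across genes within pairs of libraries and are given as a description.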

How the data were processed

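The authors aligned the Drop-seq reads with STAR 2.5.3a to mm10 with the GRCm38 annotation, after bcl2fastq, per the submitters' processing notes, and deposited raw UMI counts of genes by barcodes for each library. Counts were used as deposited. Barcodes with fewer than 200 UMIs were left out, UMIs were summed per library and scaled to CPM with Python 3.11.15, numpy 2.4.6, scipy 1.17.1 and pandas 2.3.3. Between sorted libraries or sets of barcodes, genes with at least 20 UMIs over both were tested, and a 2-fold ratio made a call. Against the whole testes, a gene was tested with at least 20 UMIs in spermatids or expected there from the wild-type median. Its call also needed a level outside the range of all wild-type libraries. Ratios have exact conditional binomial intervals, CPM exact Poisson intervals and shares exact Clopper-Pearson intervals. A count of 0 was set to a floor of 3 UMIs, so genes with 0 UMIs could rank behind genes with 1 UMI among the highest and lowest ratios. edgeR 4.0.16 (R 4.3.3) gave TMM factors only. Of 28278 gene symbols, 95.3% matched an annotated chromosome. Genes named were the markers, the members of 22 lists, the 10 genes with most UMIs, the 10 most variable, and the 10 highest and lowest of each comparison. Not every such gene is named in the text, and a few are not reported here. The population and the lists were chosen with earlier results of these data known. Members of several lists, among them acrosome, late-cytoplasm, piRNA and division genes, are also key genes that the study named from these libraries. Their counts are no independent evidence either. The scripts were tested on simulated data. Alternatives changed the depth and count minimums, the scaling, the weight of barcodes and the wild-type libraries. The Cul4a and CNP libraries were not used here.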

Additional observations from a re-analysis of the deposited data

Results flagged for a closer look

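Among the 6 Mlh3-/- testes, which serve as a background for spermatid transcripts, replicate 2 had the highest share of UMIs from the 5 protamine and transition protein genes, 0.00111%, while the other 5 lay between 7.12e-05% and 0.000446%. Its distance from the nearest library, as a part of the whole range, was 0.639, past the limit for a sample that stands apart from 5 others. The value rests on 5 of 450615 UMIs, and chance marks about 1 in 20 groups in this way. In sorted spermatids the share was 9.54%.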

How the results depend on the processing

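Of the main values recomputed under alternatives, 73 kept to within 1.5 times, or to within their spread or interval, and 19 did not. A minimum of 50 UMIs gave 521 higher and 350 lower genes against primary spermatocytes, 21 and 64 against secondary spermatocytes, and 128 above and 149 below the whole testes. No minimum gave 1370 and 3872 against primary and 624 and 1832 against secondary spermatocytes. Fewer or more genes were then tested. Equal weight for every barcode, chosen after seeing the data, gave 420 higher and 507 lower genes against secondary spermatocytes, reversed Ccp110 (log2 ratio -0.32) and gave a protamine and transition protein share of 8.26%. At 400 or more UMIs per barcode that share was 10.2%. Without thinning, Prm1, Tnp2 and Tex36 were seen in 99.31%, 87.63% and 12.03% of spermatid barcodes. Deep barcodes, also chosen after seeing the data, gave 444 lower genes between high and low protamine share, and 375 without the 2 barcodes richest in 5 pachytene genes, of which 400 and 323 were among the 674. Leaving out each wild-type library in turn gave 197 to 241 genes above and 415 to 489 below. Of single genes and lists, 1009 values kept as above, 201 moved and 1 reversed. No paired analysis was possible because each sorted population was 1 library. The causes were not tested. Depth limits single barcodes, with a median of 352 UMIs.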
